A study of Mus musculus with 4 samples.

Results

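The genes of cholesterol and fatty acid synthesis were compared between Lgr5+ and Lgr6+ progenitors of the neonatal mouse cochlea. The genes were taken by symbol from the deposited table, from a list of 33 enzymes of both pathways and proteins that sense or carry sterols. The list leaves out some steps of cholesterol synthesis, such as that of *Msmo1*. All 33 were found among the 23997 genes of the table. Lgr5+ progenitors are EGFP+ cells sorted from cochleae of Lgr5-EGFP-IRES-creERT2 mice, and Lgr6+ progenitors are EGFP+ cells sorted likewise from cochleae of Lgr6-EGFP-IRES-CreERT2 mice, both on a C57BL/6 background and at postnatal day 3. In both lines EGFP stands in for the Lgr gene, so a population holds whichever cochlear cells had EGFP from that allele. Per the labels each population has 2 libraries, while the methods split the RNA of each into 3 fractions, and the number of mice is not given in the sources used here. The table holds 1 combined value per gene and population, in FPKM, which is a fragment count set relative to transcript length and to the mapped total, so the spread between replicates is unknown and no difference below has a test or an error.

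Mammalian cells build cholesterol from acetyl-CoA. Mevalonate is made first, is turned into isoprenoid units that are joined to squalene, and squalene is closed to lanosterol, which is trimmed to cholesterol in a chain of steps in the endoplasmic reticulum. Fatty acids are built from the same acetyl-CoA by Acly, Acaca and Fasn and are then lengthened by Elovl enzymes and desaturated by Scd and Fads enzymes. Both pathways are under the transcription factors SREBP1 and SREBP2, which the protein Scap carries to the Golgi for cleavage when sterols are low and which Insig proteins hold back when sterols are high. The sterol enzymes are among the best known SREBP2 targets.

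The 33 genes did not share a direction. Of the 33 genes, 10 were higher in Lgr6+ progenitors and 4 in Lgr5+ progenitors by 1.5-fold or more, on the log2(FPKM + 1) scale. *Scd1*, *Fads2*, *Hsd17b7*, *Nsdhl*, *Srebf2*, *Insig1*, *Ebp*, *Scap*, *Sqle* and *Elovl5* made up the former group, and *Mvd*, *Lss*, *Cyp51* and *Fdft1* the latter. Among the 13436 genes that reached FPKM 1 in either population, called kept genes below, 28.5% passed the same threshold toward Lgr6+ progenitors and 23.3% toward Lgr5+ progenitors. The shares of the 33 genes were 30.3% and 12.1%, so the former was near the background and the latter was below it on this scale. In either direction 42.4% of the 33 genes passed, against 51.8% of kept genes. With a pseudocount of 0.1 in place of 1, the share toward Lgr5+ progenitors was 24.2% against 25.6% of kept genes and that in either direction 57.6% against 56.8%, so neither shortfall held. All 33 genes passed the filter on low values, and 31 of them, all but *Scd1* and *Stard4*, reached FPKM 1 on both sides.

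The median log2 change of the 33 genes, Lgr6+ minus Lgr5+ progenitors, was 0.24, and that of all kept genes was 0.03. The change was positive for 21 genes and negative for 12, and 63.6% positive compares with 51.7% of kept genes. Summed over the 33 genes, FPKM came to 620.04 in Lgr5+ and 653 in Lgr6+ progenitors, which is a log2 ratio of 0.08. At the same FPKM sum for both populations this ratio was 0.34. As deposited, single genes lay between -1.59 for *Mvd* and 1.87 for *Scd1*. At a 2-fold threshold, 8 genes were higher in Lgr6+ progenitors and 3 in Lgr5+ progenitors, where 18.2% and 11.7% of kept genes passed.

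**Figure D1:**
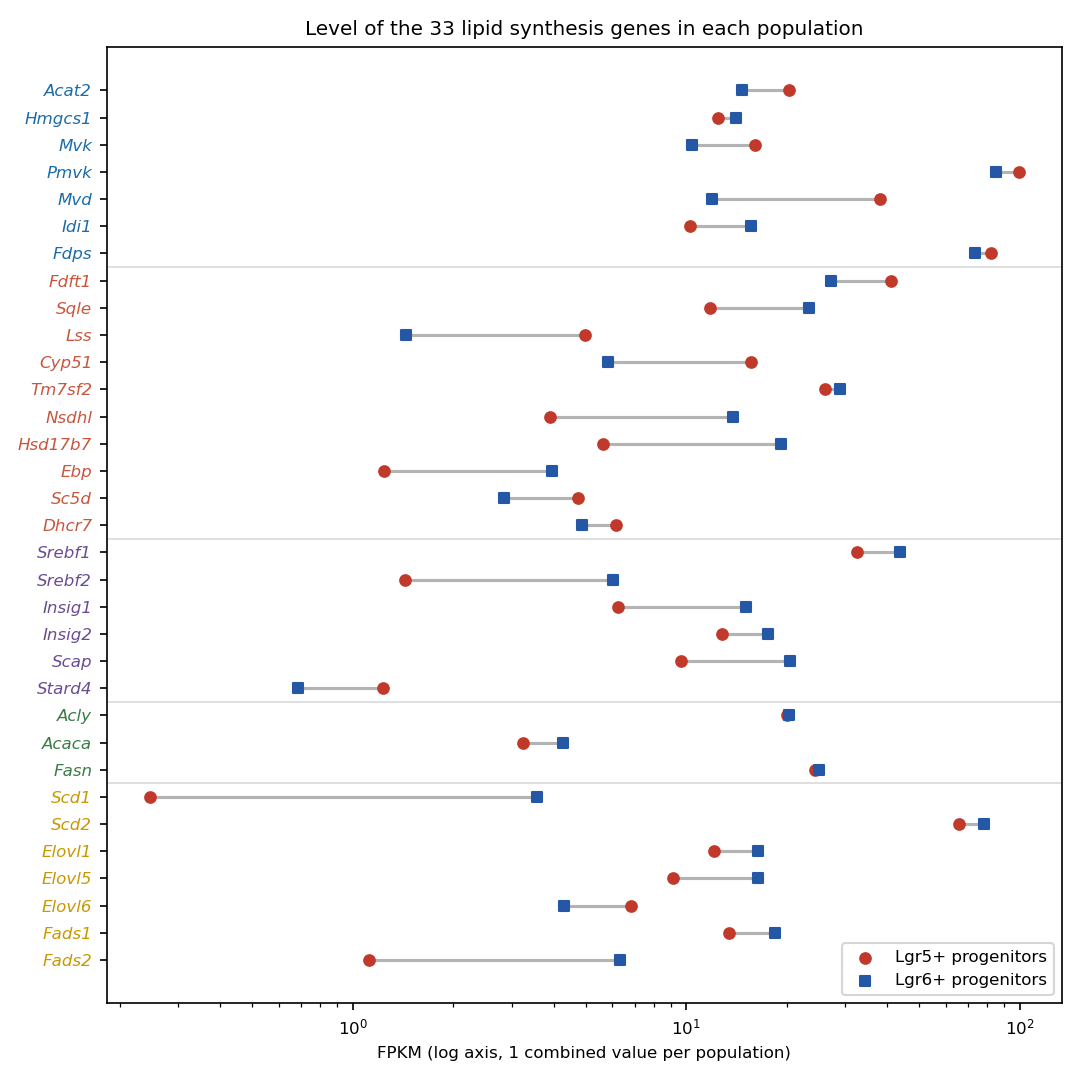
FPKM of each of the 33 genes (log axis) in Lgr5+ progenitors (red circles) and Lgr6+ progenitors (blue squares), 1 combined value per population, with gene names coloured and lines drawn by role in the order mevalonate steps, squalene to cholesterol, sterol sensing, fatty acid synthesis, and elongation and desaturation. *Pmvk*, *Fdps* and *Scd2* hold the highest levels in both populations, and the widest gaps are those of *Scd1* and *Fads2*.

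The populations also differed in markers of other cell types. Of 10 markers of supporting and prosensory cells, 3 passed toward Lgr5+ progenitors, 1 toward Lgr6+ progenitors and 6 were under 1.5-fold. Their sums were 4093 and 3731 FPKM, of which *S100a1* alone held 2959 and 3177, so the sums mostly reflect that gene. The 3 toward Lgr5+ progenitors were *Sox2*, *Jag1* and *Hes5*. The 1 was *Lgr5*, at 9.65 in Lgr5+ and 24.99 in Lgr6+ progenitors and so higher in the population not named for it, and *Lgr6* was at 2.06 and 2.90. Of 9 Schwann cell markers, 5 passed toward Lgr6+ progenitors and 2 toward Lgr5+ progenitors, and their summed FPKM was 155 in Lgr5+ and 328 in Lgr6+ progenitors. For 8 macrophage markers the sums were 1.47 and 256, for 5 endothelial markers 4.92 and 51.6, for 8 fibrocyte and mesenchyme markers 146 and 753, and for 7 hair cell markers 233 and 507. Of 5 neuronal markers 1 passed in each direction, and their sums of 92.96 and 124 differed through *Snap25*, at 7.63 and 53.4. Schwann cells make much cholesterol for myelin, and their marker *Pmp22* was at 0.784 in Lgr5+ and 64.5 in Lgr6+ progenitors. Erythroid markers went the other way, with a sum of 629 in Lgr5+ and 108 in Lgr6+ progenitors, and 5 adipocyte markers (*Adipoq*, *Plin1*, *Fabp4*, *Cidec* and *Lep*) were listed at 0 in both. The part of these cells in the values of the 33 genes was not tested. In such bulk values, fewer cells of a type and less RNA per cell cannot be told apart.

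The paper gives reads per sample and the share mapped as ranges over all samples. The depth behind the value of each population is therefore not known. Low FPKM values gathered at steps, as they would if a gene held whole fragments. Over 6908 genes with a single annotated transcript, FPKM times transcript length (less 200 bases, in kb) gathered at 0.127 in Lgr5+ progenitors, with 92 genes within 2% against 8.5 beside it. In Lgr6+ progenitors it gathered at 0.0399, with 36 genes against 9. If a step is 1 fragment, Lgr6+ progenitors were read 3.19 times as deeply, a reading not checked against the ranges in the paper. On that reading the lowest value of the 33 genes, the FPKM of *Scd1* in Lgr5+ progenitors, rests on 9.004 steps, that of *Fads2* on 11.5, that of *Ebp* on 15.1, that of *Stard4* on 47.3 and that of *Srebf2* on 54.1. The other Lgr5+ values rest on 60.6 (*Nsdhl*) to 2724 steps (*Scd2*) and the Lgr6+ values on 84.1 (*Stard4*) to 10303 (*Scd2*), with no transcript length for *Hmgcs1*.

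Reference promoters of 6 genes are shown because these genes differed in opposite directions or carry the sequence through which SREBP acts. *Mvd* and *Lss* were higher in Lgr5+ progenitors, *Nsdhl*, *Hsd17b7* and *Srebf2* were higher in Lgr6+ progenitors, and *Hmgcs1* is a textbook SREBP2 target that differed little. Each line gives the 200 bases before an annotated RefSeq start in GRCm38.p6, 5′ to 3′ on the strand of the gene. Capitals mark 3 motifs on either strand, which are the core of the sterol regulatory element (SRE, CACNCCA), the CCAAT box bound by NF-Y (CCAAT) and the GC box bound by Sp1 (GGGCGG). The windows are chr8:122443423-122443622 on the minus strand for *Mvd*, chr10:76531405-76531604 on the plus strand for *Lss*, chrX:72918321-72918520 on the plus strand for *Nsdhl*, chr1:169969206-169969405 on the minus strand for *Hsd17b7*, chr15:82147069-82147268 on the plus strand for *Srebf2* and chr13:119690151-119690350 on the plus strand for *Hmgcs1*.
Mvd: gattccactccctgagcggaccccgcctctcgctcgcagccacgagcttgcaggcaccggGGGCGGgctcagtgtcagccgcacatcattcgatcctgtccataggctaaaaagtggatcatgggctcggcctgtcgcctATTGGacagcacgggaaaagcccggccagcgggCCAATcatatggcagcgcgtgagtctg
Lss: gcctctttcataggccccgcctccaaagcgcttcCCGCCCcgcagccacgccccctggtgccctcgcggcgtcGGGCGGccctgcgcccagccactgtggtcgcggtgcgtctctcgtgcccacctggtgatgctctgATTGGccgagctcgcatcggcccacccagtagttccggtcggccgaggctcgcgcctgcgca
Nsdhl: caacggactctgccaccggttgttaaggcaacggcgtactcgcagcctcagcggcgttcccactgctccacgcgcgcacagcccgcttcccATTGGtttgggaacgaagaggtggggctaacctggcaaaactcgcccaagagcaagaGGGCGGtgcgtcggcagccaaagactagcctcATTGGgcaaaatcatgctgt
Hsd17b7: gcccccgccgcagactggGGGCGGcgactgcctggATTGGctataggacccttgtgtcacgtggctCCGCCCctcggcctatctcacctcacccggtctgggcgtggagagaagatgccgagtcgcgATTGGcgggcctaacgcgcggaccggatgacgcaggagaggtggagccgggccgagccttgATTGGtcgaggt
Srebf2: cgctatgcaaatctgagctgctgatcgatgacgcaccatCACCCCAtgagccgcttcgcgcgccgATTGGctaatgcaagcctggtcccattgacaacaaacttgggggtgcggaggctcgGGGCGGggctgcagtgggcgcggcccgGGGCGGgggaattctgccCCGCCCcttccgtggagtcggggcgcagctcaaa
Hmgcs1: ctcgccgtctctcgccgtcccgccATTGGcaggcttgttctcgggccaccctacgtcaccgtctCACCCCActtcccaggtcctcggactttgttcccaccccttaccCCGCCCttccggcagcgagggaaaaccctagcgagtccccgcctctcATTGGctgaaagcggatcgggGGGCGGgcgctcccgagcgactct

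All 6 windows hold a CCAAT box and a GC box, whichever population had the higher level. The 9-letter SRE TCACNCCAC, which contains the core, was found in *Hmgcs1* alone, at positions -137 to -129 from the start, and the core in *Srebf2* lies at -161 to -155. RefSeq promoters were matched for 26 of the 33 genes, and *Fdps*, *Fdft1*, *Sqle*, *Stard4*, *Scd1*, *Scd2* and *Fads1* had no entry. Of the 26, 6 had more than 1 promoter, and a motif in any promoter of a gene was counted, here and over all genes. In the 250 bases before a start, 20 of the 26 genes (76.9%) had a CCAAT box on either strand. This compares with 40.1% of 9645 kept protein-coding genes and 37.5% of all 27025 genes with a promoter. A GC box was present in 21 of 26 (80.8%), against 64.1% and 35.4%. Both boxes were found in 17 of the 26, and the share of all genes with both was not calculated. *Fads2*, whose log2 change of 1.79 exceeds those of the genes shown, had a GC box and no CCAAT box. By direction, a CCAAT box was found in 3 of 3 genes higher in Lgr5+ progenitors, 6 of 8 higher in Lgr6+ progenitors and 11 of 15 under 1.5-fold.
The SRE core was in 6 of 26 genes (23.1%), against 18.2% of kept protein-coding genes, and the E-box CACGTG, to which SREBPs and other factors bind, was in 6 of 26 (23.1%) against 9.81%. An E-box was in *Insig1*, *Scap*, *Elovl5* and *Hsd17b7*, 4 of the 8 matched genes higher in Lgr6+ progenitors, and in *Sc5d* and *Dhcr7* among the rest. These are matches of letters and were not tested.

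The mevalonate and isoprenoid steps had higher levels than the later sterol steps, with a median FPKM of 20.3 against 5.90 in Lgr5+ and 14.7 against 9.80 in Lgr6+ progenitors, and smaller differences. Of their 7 genes, 1 (14.3%) passed toward Lgr5+ progenitors and none toward Lgr6+ progenitors, beside 23.3% and 28.5% of kept genes. Their median log2 change was -0.22. *Pmvk*, the phosphomevalonate kinase, had an FPKM of 99.2 in Lgr5+ and 84.9 in Lgr6+ progenitors. *Fdps*, which makes farnesyl diphosphate, had 82.2 and 73.2. These were the first and second of the 33 levels in Lgr5+ progenitors, and *Pmvk* stood at percentiles 91.9 and 91.5 of kept genes and *Fdps* at 90.5 and 90.3. *Acat2*, the cytosolic thiolase that starts the pathway, had 20.3 and 14.7, a log2 change of -0.44. *Hmgcs1*, the HMG-CoA synthase, had 12.5 and 14.1, a change of 0.17.

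*Mvd*, on chromosome 8 from 122433596 to 122443422 in GRCm38, was the exception in this group. It encodes mevalonate diphosphate decarboxylase, which releases isopentenyl diphosphate. Its FPKM of 38.0 in Lgr5+ and 11.9 in Lgr6+ progenitors gave a ratio of 3.19 and a log2 change of -1.59, at percentile 3.83 of the changes of kept genes. Within the populations *Mvd* stood at percentile 81.7 of kept genes in Lgr5+ and at percentile 55.0 in Lgr6+ progenitors. *Mvk*, the mevalonate kinase, went the same way with 16.1 and 10.4, a log2 change of -0.58 that lies just short of the threshold and passed it in 4 of 9 other settings. *Idi1*, the isomerase that uses the product of Mvd, had 10.2 and 15.6, a change of 0.57 in the other direction. That change lies just short of the threshold too and passed it toward Lgr6+ progenitors in 3 of 9 other settings.

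The 10 genes from squalene to cholesterol were divided. Of these, 4 (40%) passed toward Lgr6+ progenitors and 3 (30%) toward Lgr5+ progenitors, beside 28.5% and 23.3% of kept genes. The other 3 were under the threshold, and the median log2 change of -0.07 reflects neither side. The median size of the change without its sign was 1.04, against 0.61 over kept genes. From squalene synthase to the demethylation of lanosterol, *Fdft1*, *Lss* and *Cyp51* passed toward Lgr5+ progenitors and *Sqle* toward Lgr6+ progenitors. The division of the 10 genes at *Cyp51* was made after the values were seen. *Fdft1*, the squalene synthase, had an FPKM of 41.2 in Lgr5+ and 27.1 in Lgr6+ progenitors, for a log2 change of -0.59 that lies just past the threshold. *Lss*, the lanosterol synthase on chromosome 10 from 76531565 to 76557139 in RefSeq, had 4.98 and 1.45, a ratio of 3.44 and a change of -1.29. *Cyp51*, the lanosterol 14-alpha-demethylase on chromosome 5 from 4080674 to 4104697, had 15.6 and 5.84, a ratio of 2.67 and a change of -1.28. *Sqle*, the squalene epoxidase between Fdft1 and Lss and a rate-limiting step, went the other way with 11.8 and 23.3, a change of 0.93.

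Of the 6 listed genes for steps after Cyp51, 3 passed toward Lgr6+ progenitors, as did 28.5% of kept genes. These 3 were *Nsdhl*, *Hsd17b7* and *Ebp*. *Nsdhl*, on chromosome X from 72918521 to 72958528, and *Hsd17b7*, on chromosome 1 from 169949537 to 169969205, encode the dehydrogenase and the ketoreductase that take part in removing the methyl groups at carbon 4 of the sterol. *Nsdhl* had an FPKM of 3.92 in Lgr5+ and 13.8 in Lgr6+ progenitors, a ratio of 3.51 and a log2 change of 1.59. *Hsd17b7* had 5.64 and 19.2, a ratio of 3.41 and a change of 1.61. *Msmo1*, the oxidase of the same demethylation and not among the 33 genes, had 8.50 and 23.7, a change of 1.38. All 3 genes of this reaction were therefore higher in Lgr6+ progenitors, a grouping made after the values were seen. *Ebp*, the sterol isomerase that acts next, had 1.24 and 3.96, a change of 1.15.

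The other 3 genes were under the threshold. *Tm7sf2*, a sterol C14-reductase, had an FPKM of 25.98 in Lgr5+ and 28.8 in Lgr6+ progenitors. *Sc5d*, the lathosterol desaturase, had 4.74 and 2.85, a log2 change of -0.58 just short of the threshold, which it passed in 4 of 8 other settings. *Dhcr7*, which makes cholesterol from 7-dehydrocholesterol, had 6.15 and 4.87, a change of -0.29. Among the 17 enzymes of cholesterol synthesis in the list, which leaves out some steps, 4 (23.5%) passed in each direction. Over kept genes 28.5% passed toward Lgr6+ and 23.3% toward Lgr5+ progenitors. The median log2 change of the 17 was -0.22, and their summed FPKM was 399.7 in Lgr5+ and 356 in Lgr6+ progenitors.

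**Figure D2:**
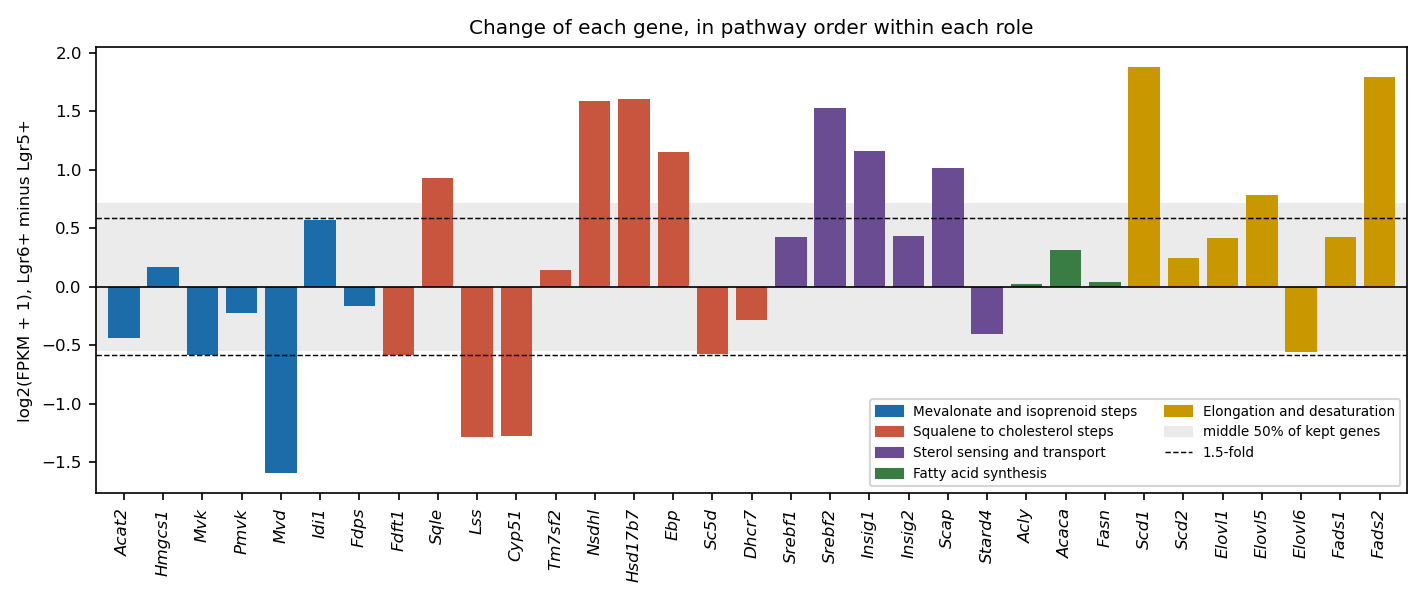
Log2(FPKM + 1) in Lgr6+ minus Lgr5+ progenitors for each of the 33 genes, drawn in pathway order within each role (colours); dashed lines mark 1.5-fold and the grey band holds the middle 50% of 13436 kept genes. Bars change sign between neighbouring steps, from -1.59 at *Mvd* to 1.61 at *Hsd17b7*, while the 3 bars of fatty acid synthesis lie between 0.02 and 0.31.

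As reported, the genes that sense or carry sterols were higher in Lgr6+ progenitors or did not pass. Of 6, 3 passed toward Lgr6+ progenitors and none toward Lgr5+ progenitors, with a median log2 change of 0.72. Over kept genes 28.5% and 23.3% passed in these directions. *Srebf2*, which encodes SREBP2 and lies on chromosome 15 from 82147269 to 82204960, stood at 1.44 FPKM in Lgr5+ and 6.01 in Lgr6+ progenitors, a ratio of 4.19 and a change of 1.53. *Srebf1*, which encodes SREBP1, had 32.4 and 43.9, a change of 0.42. *Srebf1* was listed higher than *Srebf2* in both populations, by 22.6 times in Lgr5+ and 7.30 times in Lgr6+ progenitors, but the deposited interval of *Srebf1* is that of *Rai1* as well, from 60105013 to 60220604 on chromosome 11, and how reads were divided between them is unknown. A ratio of levels within a population does not depend on how the populations are scaled to each other.

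*Scap*, the SREBP escort on chromosome 9 from 110333288 to 110384949, stood at 9.65 FPKM in Lgr5+ and 20.5 in Lgr6+ progenitors, for a log2 change of 1.01. *Insig1*, on chromosome 5 from 28071412 to 28078662, had 6.25 and 15.1, a change of 1.15. It retains Scap in the endoplasmic reticulum and is itself a target of SREBP. *Insig2*, its paralog with the same function, had 12.8 and 17.6, a change of 0.43, and the level of *Insig2* over that of *Insig1* was 2.04 in Lgr5+ and 1.16 in Lgr6+ progenitors. *Stard4*, a carrier of cholesterol between membranes that SREBP2 also controls, was the lowest of the 33 in Lgr6+ progenitors, with 1.23 and 0.685. Its log2 change was -0.40, and it passed toward Lgr5+ progenitors in 3 of 7 other settings, among them the pseudocount of 0.1. *Scap* and *Insig1* thus passed toward the same population, and *Insig2* and *Stard4* did not pass as reported.

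The 3 enzymes that build palmitate were equal to within 1.5-fold. *Acly*, which makes cytosolic acetyl-CoA, had an FPKM of 20.0 in Lgr5+ and 20.3 in Lgr6+ progenitors. *Fasn*, the fatty acid synthase, had 24.4 and 25.1. *Acaca*, the acetyl-CoA carboxylase that commits carbon to the pathway, had 3.25 and 4.27, a log2 change of 0.31. All 3 had changes above 0, but that of *Acly* was 0.02 and turned to -0.01 when the median of kept genes was set to 0.

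Among the 7 genes that lengthen and desaturate fatty acids, 3 passed toward Lgr6+ progenitors and none toward Lgr5+ progenitors, around a median log2 change of 0.43, and 42.9% toward Lgr6+ progenitors stands beside 28.5% of kept genes. *Scd2*, the higher of the stearoyl-CoA desaturase genes, had an FPKM of 66.0 in Lgr5+ and 78.2 in Lgr6+ progenitors. *Scd1*, on chromosome 19 from 44394450 to 44407709, had 0.247 and 3.57, a change of 1.87. The ratio of *Scd1* was 14.5 without the added 1, but its Lgr5+ value spans few steps. *Scd2* exceeded *Scd1* by 267 times in Lgr5+ and by 21.9 times in Lgr6+ progenitors, and since these paralogs are alike in sequence, the counting could have moved reads between them.

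*Fads1* and *Fads2* lie side by side on chromosome 19 and encode the delta-5 and delta-6 desaturases of polyunsaturated fatty acids. *Fads2*, from 10064164 to 10101503, stood at 1.12 FPKM in Lgr5+ and 6.34 in Lgr6+ progenitors, a ratio of 5.66 and a log2 change of 1.79. *Fads1* had 13.47 and 18.5, a change of 0.43, so the level of *Fads1* over *Fads2* was 12.02 in Lgr5+ and 2.91 in Lgr6+ progenitors. The elongases were mixed. *Elovl5*, which lengthens polyunsaturated fatty acids, had 9.14 and 16.4, a change of 0.78, and *Elovl1*, which makes very long saturated chains, had 12.1 and 16.4, a change of 0.41. *Elovl6*, which lengthens palmitate to stearate, had 6.82 and 4.31, a change of -0.56 that passed toward Lgr5+ progenitors in 4 of 9 other settings. The order of *Elovl5* and *Elovl6* was the same in both populations, but their ratio went from 1.34 in Lgr5+ to 3.81 in Lgr6+ progenitors.

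**Figure D3:**
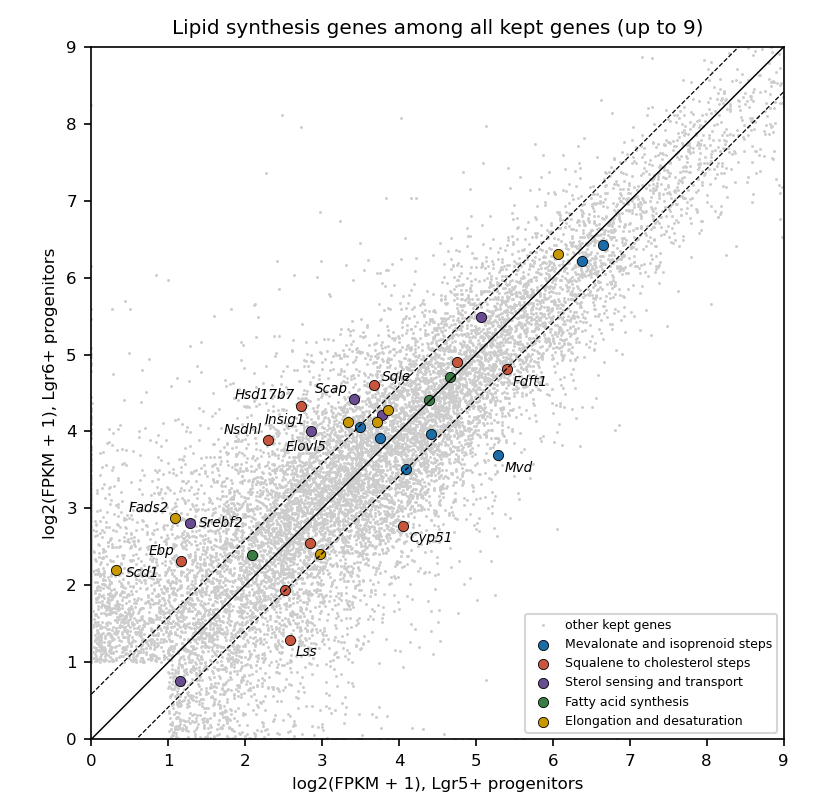
Log2(FPKM + 1) in Lgr5+ progenitors (x axis) against Lgr6+ progenitors (y axis), both shown up to 9, for kept genes (grey) and the 33 genes (coloured by role, the 14 past 1.5-fold named), with the line of equal level and dashed lines at 1.5-fold. *Scd1*, *Fads2* and *Srebf2* lie above the line at low Lgr5+ levels, and *Mvd*, *Cyp51* and *Lss* lie below it.

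Ranks within each population need no scaling between them. The percentile of a gene among kept genes was over 10 points higher in Lgr6+ progenitors for 11 of the 33 genes and over 10 points lower for 6. The share of all kept genes that moved as far was not calculated, so these counts cannot be called particular to the 33 genes. The 11 were the 10 genes past 1.5-fold and *Idi1*, and the 6 were *Mvd*, *Lss*, *Cyp51*, *Mvk*, *Sc5d* and *Elovl6*, without *Fdft1*. *Hsd17b7* moved from percentile 37.9 in Lgr5+ to 68.2 in Lgr6+ progenitors, and *Nsdhl* from 29.9 to 59.0. *Cyp51* moved from 62.8 to 35.6 and *Lss* from 35.03 to 9.82. *Fdps*, *Pmvk*, *Fasn* and *Acly* stayed within 1 point.

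Other genes of these pathways were read beside the 33. *Lbr*, a nuclear envelope protein with the same reductase activity as Tm7sf2, had an FPKM of 6.19 in Lgr5+ and 23.5 in Lgr6+ progenitors, for a log2 change of 1.77. *Tm7sf2*, at 0.15, did not share the change of *Lbr*.

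A further list of 27 synthesis and SREBP genes had 24 genes in the table, of which 17 were kept. Of the 17, 9 passed toward Lgr6+ progenitors and 2 toward Lgr5+ progenitors, with a median log2 change of 0.59, so 52.9% passed toward Lgr6+ progenitors against the 28.5% of kept genes. *Acss2*, which makes acetyl-CoA from acetate, had an FPKM of 5.90 in Lgr5+ and 21.5 in Lgr6+ progenitors, a change of 1.70. *Elovl4*, an elongase of very long chains, had 3.67 and 9.96, a change of 1.23. The 2 genes that passed toward Lgr5+ progenitors were *Mbtps1*, the Golgi protease that makes the first cut in SREBPs, with 57.3 and 30.3, a change of -0.90, and *Elovl2*, with 3.76 and 2.13, a change of -0.60.

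**Figure D4:**
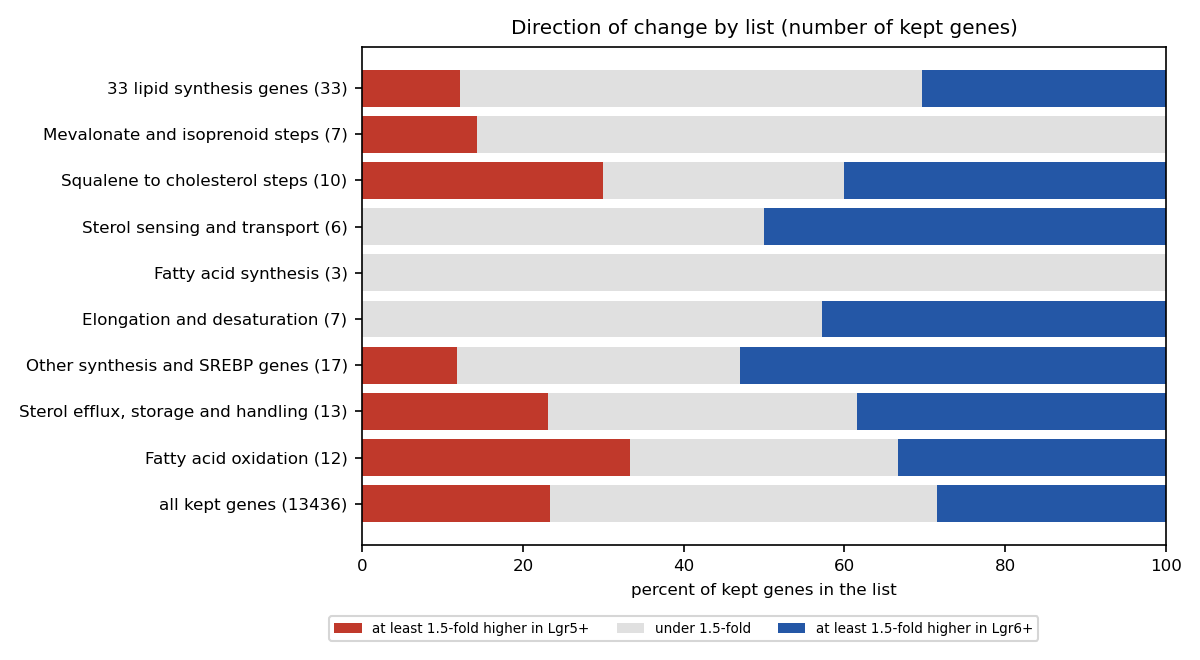
Percent of the kept genes of each list that passed 1.5-fold toward Lgr5+ progenitors (red), were under 1.5-fold (grey) or passed toward Lgr6+ progenitors (blue), with the number of kept genes in parentheses. The 33 genes reach 30.3% toward Lgr6+ progenitors, near the 28.5% of all kept genes in the lowest bar.

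Positions of 16 of the 33 genes overlap another RefSeq gene, and for 9 of them that gene is also in the table, 8 with the same deposited interval, where reads of the overlap could have been counted for either. *Srebf1* overlaps *Rai1*, *Fdft1* overlaps *Ctsb*, *Tm7sf2* overlaps *Vps51*, *Acaca* overlaps *Tada2a*, *Elovl1* overlaps *Cdc20* and *Lss* overlaps *4930483K19Rik*. *Srebf2*, *Scd2* and *Fads1* overlap the microRNA genes *Mir33*, *Mir5114* and *Mir6993*. Among the 17 genes free of any overlap, 7 (41.2%) passed toward Lgr6+ progenitors and 1 (5.88%) toward Lgr5+ progenitors. Over all kept genes, with or without an overlap, 28.5% and 23.3% passed. *Cyp51* is the gene higher in Lgr5+ progenitors that no overlap touches. *Mvd* was left out for its overlap with *Gm51557*, which is not among the genes of the table.

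How the populations are scaled to each other changes the balance of the 2 directions. The FPKM values of the whole table summed to 754163 in Lgr5+ and 627932 in Lgr6+ progenitors. When both were set to the same sum, the median log2 change of kept genes moved by 0.23, and 15 of the 33 genes were higher in Lgr6+ progenitors and 3 in Lgr5+ progenitors, where 36.9% and 16.3% of kept genes passed. The median of the 33 genes less that of kept genes was 0.21 as deposited and 0.23 at the same sum. *Mvd*, *Lss* and *Cyp51* still passed toward Lgr5+ progenitors there, while *Fdft1* did not. *Idi1*, *Srebf1*, *Insig2*, *Elovl1* and *Fads1*, all under the threshold as deposited, passed toward Lgr6+ progenitors at the same sum.

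**Figure D5:**
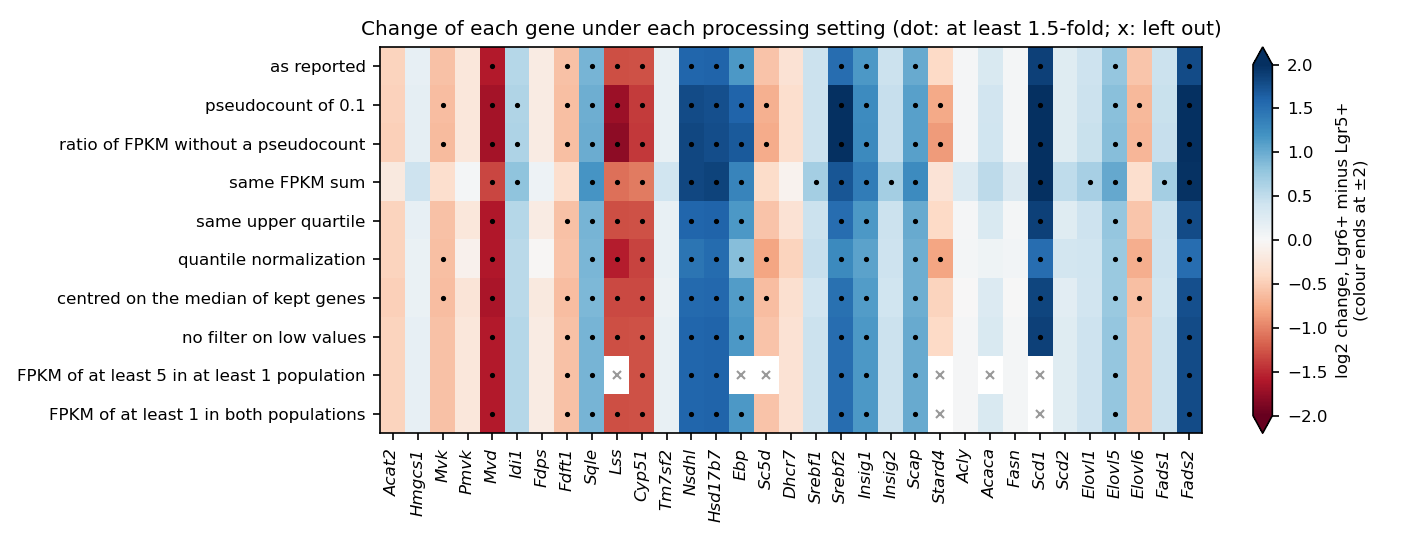
Log2 change of each of the 33 genes (columns) under each processing setting (rows), blue where higher in Lgr6+ and red where higher in Lgr5+ progenitors; dots mark at least 1.5-fold and crosses mark genes a filter left out. Of the 14 genes with a dot in the top row, 13 have a dot in every setting that kept them, and *Fdft1* does not.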

How the data were processed

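RNA of sorted cochlear cells was sequenced from 2 populations. Per the labels, 4 libraries were made, and the authors used Trimmomatic for trimming, TopHat for mapping and Cufflinks for FPKM. Their versions are not given in the sources used here. The deposited FPKM is 1 combined value per population. The methods name mm9 and the processing notes of the submitters mm10. Of 22500 genes matched by symbol to RefSeq GRCm38.p6, 98.8% had an overlapping interval, so positions were read as GRCm38 with 1 added to starts, which count from 0. The table also holds a fold change, a *p*-value and a *q*-value of the authors' own comparison, and these were not used. No per-sample column was present, so the limma fit that had been foreseen for per-sample values was not run.

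The log2 change is log2(FPKM + 1) in Lgr6+ minus Lgr5+ progenitors, for genes that reached FPKM 1 in either population, with a threshold of 1.5-fold. No *p*-value was calculated. The 33 genes and all lists were chosen with earlier results of these data known. All 33 are named, as are *Msmo1* and *Lbr* of the sterol steps outside the list, where other genes are not reported here, and, of each further list, the 2 kept genes with the largest change past 1.5-fold in each direction. The marker genes *S100a1*, *Sox2*, *Jag1*, *Hes5*, *Lgr5*, *Lgr6*, *Otos*, *Igfbp7*, *Snap25* and *Pmp22* and the overlapping genes were named after their values were seen. Motifs were searched in RefSeq promoters (GRCm38.p6). Python 3.11.15, numpy 2.4.6, pandas 2.3.3 and matplotlib 3.10.9 were used, and the calculation was checked on simulated data. Alternatives were a pseudocount of 0.1, a ratio of FPKM without a pseudocount, 4 scalings, 3 filters and a 2-fold threshold. Depth is known only as a range over all samples and not per library, so values carry no counting interval.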

Additional observations from a re-analysis of the deposited data

How the results depend on the processing

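No paired analysis was possible because the table holds 1 combined value per population, and for the same reason no replicate could be left out. Of the 14 genes at least 1.5-fold apart, 13 kept their direction and stayed past 1.5-fold in every setting that kept them. *Fdft1* fell short after quantile normalization and at the same FPKM sum, with log2 changes of -0.57 and -0.33. At the 2-fold threshold 11 of the 14 passed. No called gene changed sign. *Acly*, *Fdps* and *Pmvk*, all under the threshold, changed sign in at least 1 setting. The number of genes higher in Lgr5+ progenitors went from 4 to 8 with a pseudocount of 0.1 and to 8 with the ratio of FPKM, and to 7 after quantile normalization and to 7 when the median of kept genes was set to 0. The median log2 change went from 0.24 to 0.50 at the same FPKM sum. Without genes that overlap another gene, an alternative chosen after seeing the data, 8 of 17 genes passed (47.1%, beside 51.8% of all kept genes). Of these, 1 was higher in Lgr5+ progenitors, and the median of the 17 was 0.43. Between the 10 and 4 genes as reported, the share of passing genes higher in Lgr6+ progenitors was 71.4%. It was 57.9% with a pseudocount of 0.1 or with the ratio, 58.8% after quantile normalization or centring, 83.3% at the same FPKM sum and 87.5% without overlapping genes. Over all kept genes this share was 54.96% as deposited and 69.4% at the same FPKM sum. Under an FPKM of at least 5, 27 of the 33 genes were left. Depth is known only as a range over all samples and not per library. The precision of low values such as those of *Scd1*, *Fads2* and *Ebp* in Lgr5+ progenitors is therefore unknown.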

Other observations

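Genes that move sterols out of the synthesis pathway were mixed as well. Of 16 genes of sterol efflux, storage and handling, 13 were kept, of which 5 passed 1.5-fold toward Lgr6+ progenitors and 3 toward Lgr5+ progenitors, with a median log2 change of 0.44. These shares of 38.5% and 23.1% stand beside 28.5% and 23.3% of kept genes. *Cyp46a1*, the cholesterol 24-hydroxylase known from neurons, had an FPKM of 1.63 in Lgr5+ and 18.7 in Lgr6+ progenitors, a change of 2.91. *Abca1*, the cholesterol exporter, had 1.03 and 6.68, a change of 1.92. The largest changes toward Lgr5+ progenitors were those of *Ch25h*, the cholesterol 25-hydroxylase, at 3.75 in Lgr5+ progenitors and listed at 0 in Lgr6+ progenitors, and of *Stard3*, a late endosomal cholesterol carrier, at 24.4 and 10.998, a change of -1.08.

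Of 16 genes of fatty acid oxidation, 12 were kept, and 4 passed in each direction (33.3% each, against 28.5% and 23.3% of kept genes), around a median log2 change of 0.33. *Cpt1a*, which admits long-chain fatty acids to mitochondria, had an FPKM of 3.41 in Lgr5+ and 12.6 in Lgr6+ progenitors, a change of 1.63. *Hadhb* and *Hadha* encode the subunits of the same mitochondrial trifunctional protein and lay on opposite sides. *Hadhb* had 16.0 in Lgr5+ and 43.5 in Lgr6+ progenitors, a change of 1.39, and *Hadha* had 22.5 and 11.02, a change of -0.96. *Cpt1c*, a brain form of the Cpt1 enzymes, had 23.04 and 12.04, a change of -0.88.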
